A study of Mus musculus with 96 samples.

Results

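Transcript levels of 8 genes of cholesterol synthesis and its control were described in single cells of the mouse lung line C10, grown with and without the compound RO-3306. The list is set by gene name: the enzymes Hmgcs1, Idi1, Fdps, Fdft1, Sqle and Cyp51, and the regulators Srebf2 and Insig1. They make up 8 of the 40202 genes listed in each count file. The series holds 96 libraries, each from 1 sorted cell, with 48 untreated cells (control, treatment none) and 48 cells given 10 nM RO-3306 for 36 h. C10 is a mouse line that the labels call alveolar type II epithelial, and RO-3306 is known as an inhibitor of CDK1, the kinase that drives entry into mitosis. The dose is printed as labelled, is lower than those in common use, and the files do not measure CDK1 activity. Every cell was grown in RPMI with serum and L-glutamine, placed in a nanowell by an image-guided dispenser, and read out with SMART-seq v4, a full-length cDNA method without molecular identifiers. The comparison asks how the transcripts of these genes differed between treated and untreated cells.

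Cells make cholesterol from acetyl-CoA through mevalonate, farnesyl diphosphate, squalene and lanosterol, or take it up as lipoprotein particles through receptors on their surface. The transcription factor SREBP-2, encoded by Srebf2, turns on nearly all enzymes of the route. When sterols are scarce, SCAP carries SREBP-2 from the endoplasmic reticulum to the Golgi, where proteases release its active part. When sterols are plentiful, the INSIG proteins hold SCAP back. Lung type II cells also use cholesterol in surfactant.

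SREBP-2 binds sterol regulatory elements near gene starts, often beside a site of the factor NF-Y. The promoter sequences are shown because the results turn on Hmgcs1 and Cyp51, while Srebf2 encodes the factor itself. They hold the 250 bases before the start of the gene, 5′ to 3′ on the gene's strand, from RefSeq on GRCm38.p6, an older assembly than the GRCm39 of the count files. Capitals mark a match, on either strand, to the sterol element core TCACNCCAC (reverse GTGGNGTGA) or to the NF-Y box CCAAT (reverse ATTGG). The first is Hmgcs1 at chr13:119690101-119690350 (+ strand), the next Cyp51 at chr5:4104698-4104947 (- strand), and the last Srebf2 at chr15:82147019-82147268 (+ strand).
Hmgcs1: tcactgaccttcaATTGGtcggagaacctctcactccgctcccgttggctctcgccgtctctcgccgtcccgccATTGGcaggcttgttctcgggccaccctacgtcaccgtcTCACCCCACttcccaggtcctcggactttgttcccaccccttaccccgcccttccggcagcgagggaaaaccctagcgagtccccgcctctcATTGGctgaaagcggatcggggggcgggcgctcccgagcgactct
Cyp51: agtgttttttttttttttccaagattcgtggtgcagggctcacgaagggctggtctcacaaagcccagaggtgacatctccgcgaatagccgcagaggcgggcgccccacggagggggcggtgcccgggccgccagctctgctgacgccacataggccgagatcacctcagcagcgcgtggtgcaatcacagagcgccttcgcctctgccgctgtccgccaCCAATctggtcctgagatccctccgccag
Srebf2: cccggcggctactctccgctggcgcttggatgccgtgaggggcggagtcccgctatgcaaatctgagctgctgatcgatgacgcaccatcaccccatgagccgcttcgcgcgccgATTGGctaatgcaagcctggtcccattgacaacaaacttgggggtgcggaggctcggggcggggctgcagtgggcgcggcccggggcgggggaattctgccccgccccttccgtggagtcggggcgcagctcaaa

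The Hmgcs1 promoter held the sterol element core 1 time, as TCACCCCAC starting 137 bases before the gene start, and 3 NF-Y boxes. The promoters of Cyp51 and Srebf2 held 1 NF-Y box each and no match to that core. RefSeq promoters were matched for 5 of the 8 genes (Hmgcs1, Idi1, Cyp51, Insig1 and Srebf2). All 5 held an NF-Y box, and only 1, Hmgcs1, held the sterol element core. Among 32851 promoters of the same length, 1.05% held the sterol element core, 33.8% the NF-Y box and 0.326% both. The 2 motifs share no bases in the Hmgcs1 promoter. A match of letters is a description and does not show binding. The search used 1 strict pattern for the sterol element, so elements with other letters are missed. The lack of a match in Idi1, Cyp51, Insig1 and Srebf2 thus does not show that they have no such element.

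Of the 96 libraries, 29 control and 37 RO-3306 cells passed minimums of 50000 counts and 1000 detected genes, and values below are from these. Their totals ran from 59979 to 6457215 counts in control and from 295005 to 5321880 in RO-3306, with medians of 1753427 and 2234309. After thinning to 639000 reads a cell, which leaves 25 and 34 cells, the median cell had 4576 genes with a count in control and 5958 in RO-3306. Sample titles include a letter (A, B, C or D) with no stated meaning, and results are also given within these 4 sets. One RO-3306 cell, B3, had 56.0% mitochondrial counts, against group medians of 3.40% in control and 4.42% in RO-3306, and leaving it out changed the summed log2 ratio of the 8 genes only from -0.77 to -0.76. Of the 10 type II markers, 5 were at 0 in kept cells, among them the surfactant genes Sftpa1, Sftpc and Sftpd that define the type, and the list summed to 23.5 and 27.7 CPM. The 6 epithelial markers summed to 1.78 CPM (counts scaled to a library total of 1000000) in control against 0.978 CPM in RO-3306. All 6 mesenchymal markers were lower in RO-3306, with sums of 5579 and 2523 CPM (single cells from 1329 to 11354 and from 1263 to 13886). Of all 9374 genes of at least 5 CPM, 5526 were lower. Only 3 of the 6 markers had the same sign in the 4 sets, and Fn1, Acta2 and Cdh2 did not. The 8 macrophage markers summed to 58.5 and 61.2 CPM. The part of these marker differences in the results below was not tested. The labels name no separate cultures, so each treatment is 1 sample and no test was made. Intervals (95%, exact) cover counting error only for summed levels and their ratios. For shares of cells they cover only the draw of cells within 1 sample. Neither kind covers differences between cultures.

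Transcripts of Hmgcs1 and Cyp51 were lower in RO-3306 cells, in all 4 lettered sets, though control signal in sets C and D came from few cells. Srebf2 was at about 0.490 of its control level over all cells but was higher in set C. Sqle, Fdft1 and Fdps were close to the median of all genes, Idi1 was low and carried by few cells, and Insig1 could not be measured from these counts. Summed over the 8 genes, the level was 384.8 CPM in control (380.1 to 389.5) and 225.7 CPM in RO-3306 (222.7 to 228.8). The ratio of these sums was 0.587 (0.576 to 0.598).

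Of the 8 genes, 7 reached 5 CPM as the mean of both groups. Their median log2 ratio (RO-3306 to control, 1 CPM added to each) was -0.39, and the median of all 9374 genes of at least 5 CPM was -0.22. At least 2-fold lower in RO-3306 were 2 of the 7, Hmgcs1 and Cyp51, against a background of 24.2% of all genes. None of the 7 was at least 2-fold higher, against 12.2%, or 7.23% with the same sign in the 4 sets. Both genes at least 2-fold lower also had the same sign in the 4 sets, which held for 6.43% of all genes. With 2 of 7, the share is near the background of 24.2%, and the list as a whole is not set apart by it.

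**Figure D1:**
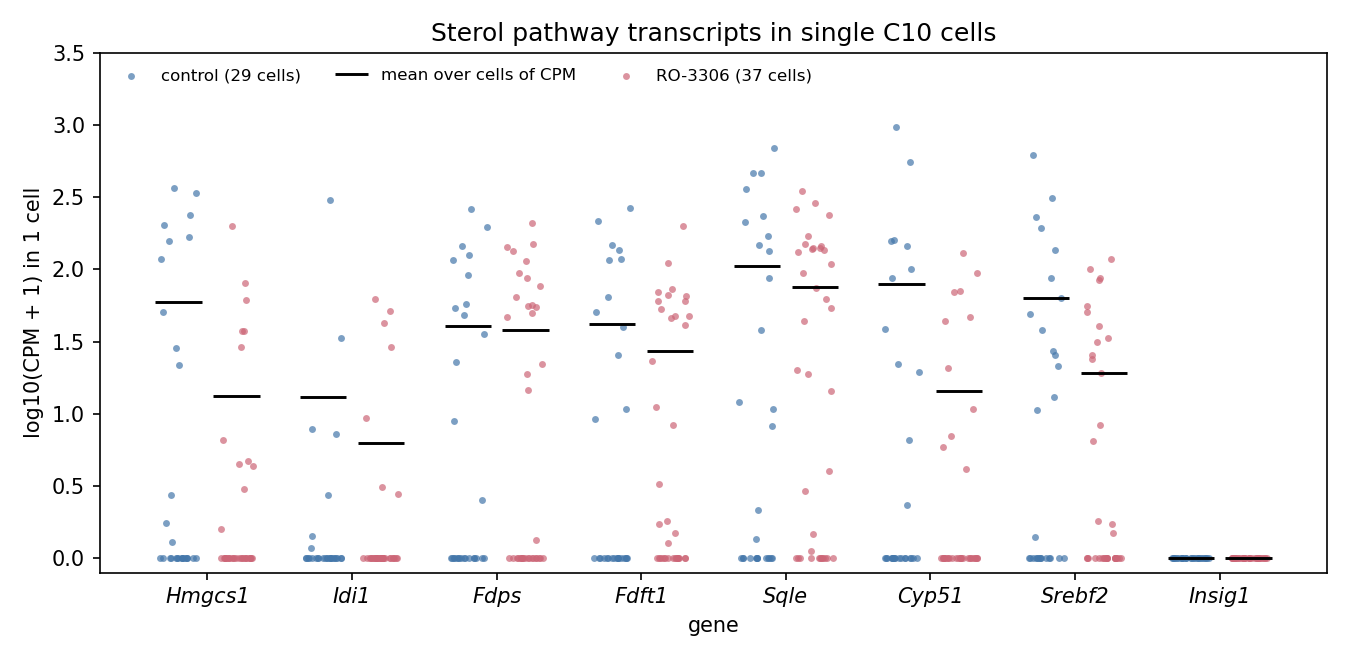
Each point is 1 kept cell, with the log10 of its CPM plus 1 on the y axis and the gene on the x axis, for 29 control cells (blue) and 37 RO-3306 cells (red). Black bars mark the mean over cells, and cells on the bottom line have no count of the gene. For Hmgcs1 and Cyp51 the top RO-3306 points are at 199 and 129 CPM, against 365 and 971 CPM in control. The top point is lower in RO-3306 for every gene with a count, and the groups overlap for every gene.

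Hmgcs1 encodes HMG-CoA synthase of the cytosol, which acts early in the mevalonate route. The gene spans 120151887 to 120169796 of chromosome 13 (+ strand, GRCm39), and reads over exons and introns were counted. Control cells ranged from 0 to 365 CPM with a median of 0, and RO-3306 cells from 0 to 199 CPM with a median of 0. The groups overlap, since most cells of each hold no count. The difference lay among cells with clear signal. At least 10 CPM was reached by 10 of 29 control cells (34.5%, 17.9% to 54.3%) and by 6 of 37 RO-3306 cells (16.2%, 6.19% to 32.0%). The 2 intervals overlap. Among those cells the median was 161 CPM in control against 48.4 CPM in RO-3306. Of the control cells, B1, C7, A3 and A12 were the highest, each above 200 CPM, and no RO-3306 cell reached that level.

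In summed counts Hmgcs1 was at 65.2 CPM (63.3 to 67.2) in control against 12.6 CPM (11.9 to 13.3) in RO-3306, a ratio of 0.193 (0.181 to 0.206) and a log2 ratio of -2.28. In sets A, B, C and D the log2 ratios were -1.59, -2.56, -2.85 and -2.51. Control levels of the sets lay between 45.4 and 80.0 CPM, and RO-3306 levels between 6.84 and 25.9 CPM, so the set levels of the groups do not overlap. The control level of set C rests on C7 at 338 CPM, since no other control cell of that set exceeded 1.74 CPM. In control set D only D9 (166 CPM) and D10 (117 CPM, from 59979 counts in all) held a count. One control cell, A3, held 30.8% of the control counts, and without the top cell of each group the log2 ratio was -2.30. Genes of like mRNA length had a median log2 ratio of -0.32, and relative to it Hmgcs1 stood at -1.96.

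Idi1 encodes the isomerase that turns isopentenyl diphosphate into its reactive partner. The gene lies on chromosome 13 from 8935642 to 8942432 (+ strand). It had a count in 7 of 29 control and 7 of 37 RO-3306 cells, and per-cell values ran from 0 to 299.6 CPM and from 0 to 61.9 CPM, with medians of 0. The summed level was 4.81 CPM in control against 7.51 CPM in RO-3306, a log2 ratio of 0.55. It has no stable direction here. The ratio was -1.36 and -1.58 in sets A and B, 2.94 and 0.93 in sets C and D, and -1.05 for the mean over cells. A single cell held 57.5% of the control counts and another 39.4% of the RO-3306 counts.

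Fdps encodes farnesyl diphosphate synthase, which supplies both the sterol route and protein prenylation. It lies on chromosome 3 from 89000895 to 89009274 (- strand). Control cells ranged from 0 to 259.6 CPM and RO-3306 cells from 0 to 209 CPM, with medians of 0. The groups overlap nearly fully, with 13 of 29 and 18 of 37 cells holding a count. The summed levels were 42.9 and 37.9 CPM, a log2 ratio of -0.18, which became 0.03 with TMM factors and 0.05 with DESeq2 size factors on the group sums. By set it was -1.09, -0.10, 0.90 and 2.52 from A to D. Without set A it was 0.93. In 43.8% of the libraries with a count, the Fdps value was fractional, which marks reads shared with other sites. Near-identical copies may thus hold part of its signal. The share with fractional values was 60% for Idi1 and from 13.6% (Sqle) to 29.6% (Hmgcs1) for the other listed genes with counts.

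Fdft1 encodes squalene synthase, the first enzyme committed to sterols. Its span on chromosome 14 runs from 63382599 to 63419136 (- strand), and 15.6% of it overlaps other genes, among them Ctsb at its 3′ end. Reads there may be left out of its count. Values ran from 0 to 265 CPM in control and from 0 to 200.5 CPM in RO-3306, with medians of 0 and 0.737 CPM. More RO-3306 cells held a count (21 of 37 against 12 of 29), but their median at 10 CPM or more was 59.6 CPM, against 116 CPM in control. The summed levels were 41.8 and 31.7 CPM, and the log2 ratio of -0.39 was -0.16 with DESeq2 size factors on the group sums. By set the ratios were -0.74, -1.04, -0.50 and 0.70. Relative to genes of like length Fdft1 was at 0.08.

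Sqle encodes squalene epoxidase, a rate-limiting oxygen-using step of the sterol branch. It lies on chromosome 15 from 59186941 to 59203042 (+ strand). Control cells ranged from 0 to 692 CPM with a median of 1.14 CPM, and RO-3306 cells from 0 to 348 CPM with a median of 19.0 CPM. The typical RO-3306 cell was thus higher, while the highest cells were control cells. A count was found in 16 of 29 control cells (55.2%, 35.7% to 73.6%) and 25 of 37 RO-3306 cells (67.6%, 50.2% to 82.0%). The summed level was 116.8 CPM in control against 95.2 CPM in RO-3306, a log2 ratio of -0.29, and the ratios were -0.25, -0.09, -0.75 and 2.30 from set A to D. In control the 5 set D cells lay below the 88.0 to 167 CPM of the other sets in summed level, and a single one of them, D2, held signal, at 466 CPM. Summed levels and medians over cells thus differ in sign for Sqle, with a log2 ratio of 3.23 between the medians.

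Cyp51 encodes lanosterol demethylase, the cytochrome P450 of the route. It lies on chromosome 5 from 4130674 to 4154697 (- strand). Control cells ranged from 0 to 971 CPM and RO-3306 cells from 0 to 129 CPM, with medians of 0. The groups overlap, but C2 at 971 CPM and A11 at 555 CPM, both control, stood far above every RO-3306 cell. At least 10 CPM was reached by 10 of 29 control cells (34.5%, 17.9% to 54.3%) and 7 of 37 RO-3306 cells (18.9%, 7.96% to 35.2%), with medians among them of 122 and 69.3 CPM. The summed level was 68.7 CPM (66.7 to 70.7) in control against 19.1 CPM in RO-3306, a ratio of 0.278 (0.263 to 0.294) and a log2 ratio of -1.79. From set A to D the log2 ratios were -0.78, -3.54, -2.47 and -2.13. The sign was thus the same in the 4 sets, while set A did not reach a 2-fold difference. In control set C only C2 (971 CPM) and C7 (18.6 CPM) held a count of Cyp51. In control set D only D9 (145 CPM) and D10 (100 CPM, from 59979 counts in all) did. Relative to genes of like length the value was -1.33.

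Srebf2 encodes SREBP-2. It spans 82031470 to 82089580 of chromosome 15 (+ strand) and hosts the microRNA gene Mir33. Control cells ranged from 0 to 622 CPM with a median of 0.397 CPM, and RO-3306 cells from 0 to 118 CPM with a median of 0. The highest control cell, A12, had only 176892 counts in all. At least 10 CPM was reached by 13 of 29 and 12 of 37 cells. The summed levels were 44.5 CPM (42.9 to 46.1) and 21.8 CPM (20.8 to 22.8), a ratio of 0.490 (0.462 to 0.518). With 1 CPM added, the log2 ratio was -0.998, just short of 2-fold, so Srebf2 was not counted as at least 2-fold lower. It was -1.29 in thinned cells, -1.73 for the mean over cells and -0.77 with DESeq2 size factors on the group sums. The sets disagreed: A, B and D gave -0.95, -1.12 and -2.27, and C gave 1.36, from 10.1 CPM in control against 27.5 CPM in RO-3306. Srebf2 has the longest mRNA of the 8, and relative to genes of like length its value was only -0.22.

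Insig1 encodes the sterol-responsive INSIG protein that retains SCAP. It had 0 counts in all 96 libraries. Its span on chromosome 5, from 28276410 to 28283660 (+ strand), lies 100% within that of Gm35223, a gene on the opposite strand. The file headers give no strand option and no option to count reads that overlap several genes, so reads from Insig1 may have been left out by the counting, and the 0 says nothing of its expression. Vldlr, a lipoprotein receptor gene, lies 100% within Gm35438 and was also at 0.

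Per kilobase of mRNA, a scale on which genes can be compared, the order in control cells was Sqle (42.4 CPM per kb), Fdps (31.1), Hmgcs1 (18.8), Cyp51 (17.5), Fdft1 (11.3), Srebf2 (8.76) and Idi1 (1.59). In RO-3306 cells it was Sqle (34.5 CPM per kb), Fdps (27.4), Fdft1 (8.58), Cyp51 (4.86), Srebf2 (4.29), Hmgcs1 (3.64) and Idi1 (2.48). Sqle and Fdps led in both groups. Hmgcs1 moved from the third place to the sixth. With 1 sample a group, neighbours in these orders have no measure of spread beyond counting error, and a length per gene ignores the intronic reads that were counted.

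**Figure D2:**
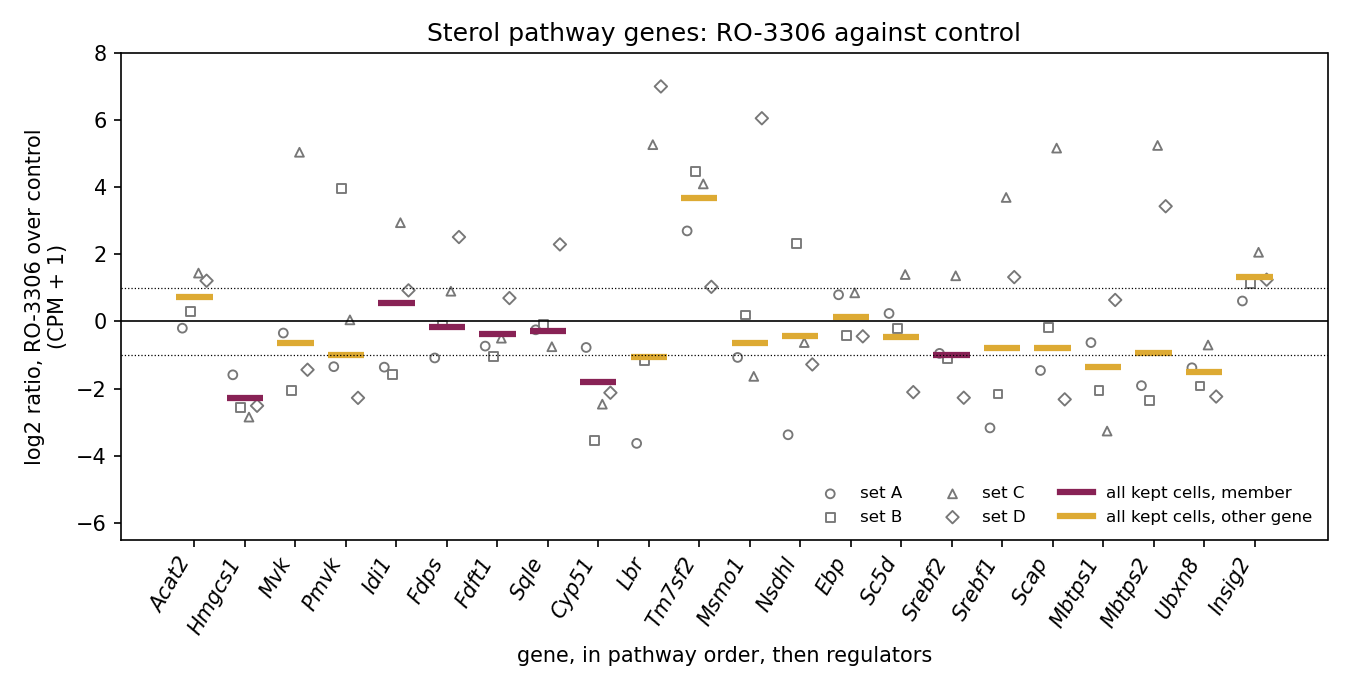
The y axis is the log2 ratio of RO-3306 over control from summed CPM plus 1, and the x axis lists genes of at least 5 CPM in pathway order, then regulators, without some genes that are not reported here. Bars give all kept cells (purple for the 8 genes, yellow for others), open symbols the 4 lettered sets, and dotted lines a 2-fold difference. Among those drawn, Hmgcs1, Cyp51, Tm7sf2, Ubxn8 and Insig2 have all 4 set symbols on the same side of 0.

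At equal depth, RO-3306 cells had more detected genes in general. For the 9374 genes the median share of thinned cells with a count was 40% in control and 55.9% in RO-3306, and the median gene gained 8.94 percentage points. A lower share in RO-3306 was seen for 23.0% of these genes. Hmgcs1 (40% to 35.3%), Cyp51 (40% to 32.4%) and Srebf2 (52% to 41.2%) were among them. Sqle went from 56% to 64.7%, close to the median gain, and Fdps and Fdft1 gained 3.06 and 2 points.

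Scaling matters for the middle of the list. TMM factors and DESeq2 size factors on the group sums moved the median of all genes by 0.20 and 0.23. Relative to the all-gene median, Hmgcs1 was at -2.06, Cyp51 at -1.57, Srebf2 at -0.78, Fdft1 at -0.17, Sqle at -0.07, Fdps at 0.04 and Idi1 at 0.77. Hmgcs1, Cyp51 and Srebf2 were thus below the typical gene, and Fdft1, Sqle and Fdps were within 0.2 of it. Srebf2 was only at -0.22 relative to genes of like length, and its ratio was positive in set C.

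The summed CPM of the 8 genes in single cells ran from 0 to 1086 in control (median 360) and from 0 to 757 in RO-3306 (median 144). The groups overlap, and the upper quartile of RO-3306 cells, 278 CPM, lay below the control median. In thinned cells the medians were 380 and 149. No count of any of the 8 genes was found in 2 control and 3 RO-3306 cells, and the median cell of each group held counts of 3 of them. By set, the summed levels were 544, 263, 372 and 290 CPM in control cells of sets A to D and 323, 142, 211 and 255 CPM in RO-3306 cells. RO-3306 was the lower group in each set, least so in set D. There a single RO-3306 cell, D6, held 59.8% of the RO-3306 counts, and a control cell, D9, 54.7% of the control counts. In control set B, B4 held 50.1%. The set levels of the groups overlap, since control set B lies below RO-3306 set A. The median log2 ratio of the 7 genes of at least 5 CPM was -0.95, -1.12, -0.50 and 0.70 from set A to D. In set D it thus had the other sign than the sum.

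**Figure D3:**
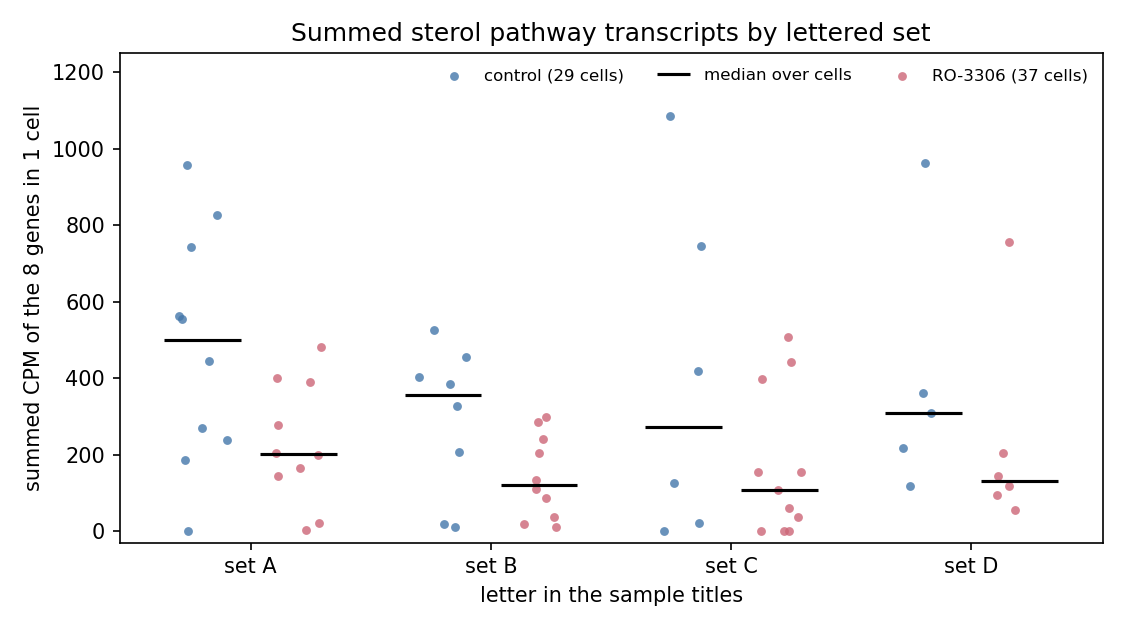
Each point is 1 kept cell, with the summed CPM of the 8 genes on the y axis and the lettered set on the x axis, for control (blue, 29 cells) and RO-3306 (red, 37 cells). Black bars are medians over cells. In each set the RO-3306 median is below the control median, and single cells of the groups overlap in all 4 sets.

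Among 15 further enzymes of the route, 10 had at least 5 CPM, with a median log2 ratio of -0.54. At least 2-fold lower were 3 of them and 1 was higher, against backgrounds of 24.2% and 12.2%. Lbr, a sterol reductase that is also a lamin receptor, was at 138 and 65.4 CPM. Its signs were opposite in sets A and B (-3.63 and -1.16) and in C and D (5.27 in C, with 0 CPM in control). Pmvk, also 2-fold lower, and Tm7sf2, which was higher, are named here after their values were seen. Pmvk, a mevalonate pathway kinase, stood at 21.0 and 9.95 CPM. Its ratios in sets A to D differed in sign (-1.35, 3.97, 0.05 and -2.28), and 3 control cells held 99.5% of its control counts. Tm7sf2, another sterol reductase, had no count in control cells and 11.8 CPM in RO-3306, in 9 of 37 cells. Of the more abundant late enzymes, Ebp (108 and 119 CPM) and Sc5d (97.0 and 70.3 CPM) differed by less than 2-fold. Acat2, at the head of the route, was at 39.8 and 66.1 CPM. The median log2 ratio of the list was -0.71, -0.01, 1.12 and 0.29 from set A to D. For all genes of at least 5 CPM it was -0.08, -0.26, 0.41 and 0.24.

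Among 8 genes of SREBP processing, 7 had at least 5 CPM, with a median log2 ratio of -0.95, 3 at least 2-fold lower (all genes 24.2%) and 1 higher (all genes 12.2%). Insig2, which encodes the other INSIG protein, was the higher one, at 57.7 CPM (55.9 to 59.5) in control against 146.1 CPM (143.7 to 148.6) in RO-3306. Its log2 ratio of 1.33 had the same sign in sets A to D (0.61, 1.12, 2.06 and 1.24). A count was found in 14 of 29 control cells (48.3%, 29.4% to 67.5%) and 33 of 37 RO-3306 cells (89.2%, 74.6% to 97.0%). At equal depth the shares were 40% and 91.2%, a gain of 51.2 points against 8.94 for the median gene. Scap, the sterol sensor that escorts SREBP, was at 52.1 and 29.7 CPM, a log2 ratio of -0.79. In set C the ratio was 5.17, from 0.249 CPM in control. The protease gene Mbtps1 was at 54.8 and 20.8 CPM (-1.36), with a positive ratio of 0.64 in set D. Ubxn8, named after its values were seen, was lower in the 4 sets, at 23.7 and 7.64 CPM. The list median was -1.38, -1.92, 2.06 and 0.64 from set A to D, so its sign differed between sets.

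**Figure D4:**
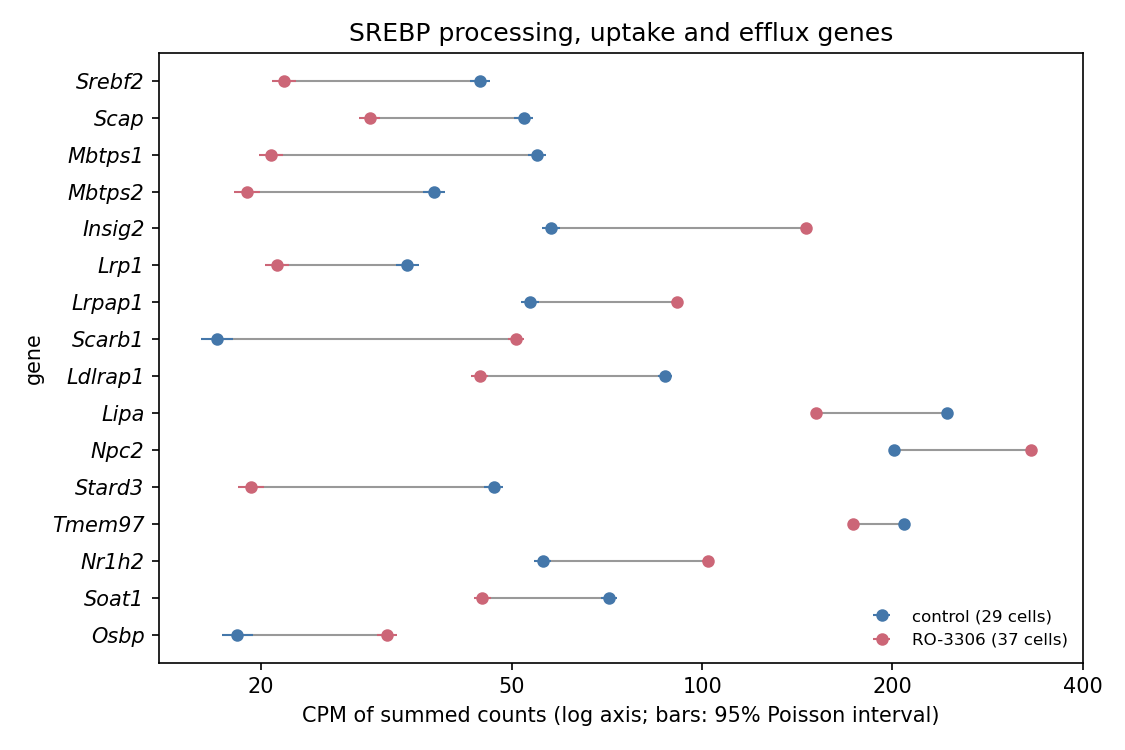
Each row is a gene of SREBP processing, uptake or efflux, and the x axis is its CPM in counts summed over 29 control cells (blue) and 37 RO-3306 cells (red), on a log scale. Bars are 95% Poisson intervals, which cover counting error only and are often smaller than the points. Insig2 and Scarb1 lie further right in RO-3306, and Srebf2, Scap, Mbtps1 and Stard3 further left.

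Of 14 uptake and transport genes, 9 had at least 5 CPM, with a median log2 ratio of -0.66, 2 at least 2-fold lower and 1 higher, shares near the 24.2% and 12.2% of all genes. Scarb1, the receptor for high-density lipoprotein, was the higher one, at 17.0 CPM (16.1 to 18.1) in control against 50.7 CPM (49.3 to 52.2) in RO-3306. Its log2 ratio was 1.52, with 0.48, 2.50, 5.14 and 1.02 in sets A to D. Control cells of set C were at 0 CPM, so the size of 5.14 depends on the 1 CPM added. A count was found in 7 of 29 control and 28 of 37 RO-3306 cells, and at equal depth in 20% and 70.6%. Stard3, a late-endosome sterol carrier, was lower in the 4 sets, at 46.8 and 19.3 CPM. Stard4, the other gene 2-fold lower, was named after its values were seen and stood at 19.2 and 1.78 CPM, in 5 and 2 cells. Npc2, which hands cholesterol out of lysosomes, was at 201 and 332 CPM, and its log2 ratio of 0.72 was positive in the 4 sets. Mylip, like Vldlr, had no count in kept cells. From set A to D the median of the uptake and transport list was -0.12, -0.51, 0 and 0.80.

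Among 8 efflux and storage genes, 3 had at least 5 CPM (Nr1h2, Soat1 and Osbp) with a median log2 ratio of 0.76 and none past 2-fold, against 12.2% higher and 24.2% lower of all genes. Nr1h2, the widely expressed liver X receptor, was at 55.9 and 102 CPM, and was detected in 9 of 29 and 31 of 37 cells. Ch25h and Apoe were at 0. The median of the efflux and storage list differed in sign between sets (1.58, -0.005, -1.78 and 2.50 from A to D). Of 8 genes of the isoprenoid branch, 7 had at least 5 CPM with a median of -0.09, 2 at least 2-fold higher (all genes 12.2%) and 1 lower (all genes 24.2%). Pggt1b, named after its values were seen, was at 1.04 and 17.7 CPM. It had a count in 2 of 29 control and 7 of 37 RO-3306 cells, and 3 cells held 93.1% of its RO-3306 counts. Ggps1, which extends farnesyl to geranylgeranyl diphosphate, was at 28.0 and 64.1 CPM but had a ratio of -2.86 in set D. Nus1, a subunit of the dolichol-making enzyme, was at 85.3 and 20.04 CPM, lower in the 4 sets. The isoprenoid list median was 0.54, 0.07, 1.81 and -1.11 from set A to D.

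Fatty acid synthesis, governed largely by the related factor SREBP-1, had 12 of 14 genes of at least 5 CPM, with a median log2 ratio of -0.78, 4 at least 2-fold lower (all genes 24.2%) and none higher (all genes 12.2%). Scd2, a desaturase, was at 147 CPM in control against 32.9 CPM in RO-3306, and Elovl6, an elongase, at 63.3 and 1.92 CPM. Both were lower in the 4 sets. No other gene of that list was past 2-fold with 1 sign in the 4 sets. Of all genes, 6.43% were lower in that way. Elovl6 reached 10 CPM in 6 of 29 control and 3 of 37 RO-3306 cells, and 3 control cells held 82.0% of its control counts. Its control level in set A was 3.64 CPM, and 79.5% of its values in libraries with a count were fractional. Acsl4, which activates long-chain fatty acids, was at 107 and 20.1 CPM with a sign that differed between sets. Acsl3, named after its values were seen, was the fourth, at 30.5 and 2.96 CPM. Acly, which supplies acetyl-CoA to the route, was at 48.0 and 29.6 CPM, less than 2-fold apart, and Thrsp was at 0. The fatty acid list median was -1.52, -1.23, -1.99 and -0.49 from set A to D.

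Spearman correlations over the 21 pairs of the 7 measured genes, in thinned cells, had a median of 0.15 in control (25 cells, -0.18 to 0.50) and 0.14 in RO-3306 (34 cells, -0.06 to 0.51), with 16 and 18 of the 21 pairs positive. Fdps and Fdft1, neighbours in the route, had the highest value in RO-3306 cells (0.51) and the lowest in control cells (-0.18). Hmgcs1 and Cyp51 were at 0.43 in control and 0.00302 in RO-3306. The summed CPM of the genes followed the number of detected genes in RO-3306 cells (0.54) more than in control cells (0.11). All values of a cell share its library and its detection rate, and in counts this sparse weak correlations are no finding.

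Among 2899 other genes of at least 50 CPM with a count in at least 50% of the thinned cells of each group, the 10 whose CPM was most like the summed CPM of the 8 were Nans, Mrps35, Usp16, Stx12, Macf1, Wdr45b, H13, Nadk, Rnf145 and Bmp4. Likeness was the mean of the Spearman correlations within control (25 cells) and within RO-3306 (34 cells). It was 0.57 for Nans, which makes sialic acid, 0.52 for Mrps35, a mitochondrial ribosome subunit, and 0.46 for Usp16, a deubiquitinase. The other 7 lay between 0.41 and 0.44. The median over all candidates was 0.04 and the 99th percentile 0.36. These are the top of a long ranking over few cells, and they are given as a description.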

How the data were processed

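Expected counts per gene were deposited by the authors, 1 file per cell, made with featureCounts 2.0.3 on GRCm39 and its RefSeq annotation, per the file headers. Reads were counted over whole gene spans and multi-mapped reads split into fractions, per the file headers. STAR and FastQC are named in the submitters' processing notes. Their versions, trimming and read filters are not given in the sources used here. Counts include PCR copies.

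Cells with at least 50000 counts and 1000 genes were kept, summed by group and scaled to CPM. Ratios are log2 with 1 CPM added, which understates changes of low genes. The size of a set ratio depends on this addition where control is near 0 CPM, as in set C for Idi1, Lbr, Scap and Scarb1. Intervals are exact Poisson for sums and Clopper-Pearson for shares, with counts rounded. Thinning drew 639000 reads per cell with a fixed seed. A count was called fractional when over 1e-06 from a whole number. mRNA lengths came by symbol from GENCODE M21 (GRCm38) for 97.2% of the 9374 genes, and like-length values use the 500 genes nearest in length.

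No test was made, since the labels name no replicate cultures and no doublet caller was run on cells sorted singly. All 8 members were named, and list genes of at least 20 CPM could be, while list genes at 0 were named as such. Some list genes are counted but not reported here by name. The 10 most alike genes were ranked by correlation. The members and lists were chosen with earlier results of these data known. Alternatives were 19 in number, among them edgeR 4.0.16 (TMM) and DESeq2 1.42.0 scaling in R 4.3.3. The factors on group sums were chosen after seeing the data, as was the count of cells with at least 10 CPM. Python 3.11.15, numpy 2.4.6, pandas 2.3.3 and scipy 1.17.1 were used. Ratios were tested on simulated data.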

Additional observations from a re-analysis of the deposited data

Results flagged for a closer look

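Libraries left out for low counts or few genes still held reads of the 8 genes. In the 11 left-out RO-3306 libraries they summed to 198 counts, or 170.3 CPM (147 to 196, exact Poisson, 95%). In the 19 left-out control libraries they summed to 10 counts, or 29.3 CPM (14.1 to 53.9). Among the RO-3306 libraries 4 held any such count, and D10 alone held 157 of the 198. This value stood out because it lies in libraries that no comparison uses and above the level in the control ones. Its source was not tested.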

How the results depend on the processing

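The log2 ratio of the summed CPM of the 8 genes, -0.77 as reported, was negative in all 18 alternatives that give it. It was -0.61 with TMM factors per cell, -1.07 for the mean and -1.31 for the median over cells, -0.91 in thinned cells, and -0.82 without the top cell of each group. Without sets A, B, C and D in turn it was -0.51, -0.87, -0.73 and -0.87. With TMM and DESeq2 factors on the group sums, added after seeing the data, it was -0.56 and -0.53. The subtraction of like-length genes gives no value for a sum. The number of members at least 2-fold lower, 2 as reported, was 4 for the mean over cells, 3 in thinned cells, with a pseudocount of 0.1 and without set B or C, and 0 for the median over cells, where most cells hold no count. The number at least 2-fold higher, 0 as reported, was 1 for the median over cells (Sqle), 1 in thinned cells (Idi1) and 1 without set A (Idi1). Of 45 single genes, 16 had the other sign for the median over cells, among them Lbr (0.36) and Nus1 (1.49), which are 2-fold lower as reported. In the other 18 alternatives 15 of the 45 changed sign at least 1 time, among them Fdps, Idi1 and Fdft1. The cause was not tested. Hmgcs1 kept a log2 ratio between -2.45 and -1.90 and Cyp51 between -2.46 and -1.33 in every alternative other than the median over cells, where both medians were 0. No paired analysis was possible because the result comes from no test and the letters and numbers shared by the groups have no stated meaning. Ratios within the lettered sets are given as description. Depth limits what can be said of Idi1, whose counts come from few cells. For a gene with 0 counts, the summed totals allow up to 0.0454 CPM for control and 0.0323 CPM for RO-3306, where reads of the gene were counted at all.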
